A study of Nannochloropsis oceanica strain IMET1 with 15 samples.

Results

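Line M3 of the oleaginous microalga *Nannochloropsis oceanica* IMET1 carries a knockout of NO06G02500, a gene of the AlkB family and putative demethylase of N6-methyladenine (6mA) in DNA, and it was compared here with the wild type (WT). The comparison takes 3 M3 libraries and 3 WT libraries, chosen by their labels, out of 15 RNA-seq libraries, and covers all 10493 genes of the deposited matrix. The other libraries come from M4, a second NO06G02500-knockout line, and from M1 and M2, knockouts of NO08G00280, a putative 6mA methyltransferase, with 3 biological replicates each. All 5 groups were of strain IMET1 and were cultured under high light and collected on day 7. The mutants were made by CRISPR-Cas9 with a linearized vector holding a bleomycin resistance gene and were picked as single zeocin-resistant colonies, so M3 stands for 1 transformant, and its knockout cannot be told apart from anything else that is particular to that transformant or to zeocin selection.

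6mA is a methylated form of adenine that occurs in the nuclear DNA of several algae, where it has been studied in connection with transcription and nucleosome position. Methyltransferases place it and AlkB-type dioxygenases can remove it, using iron and 2-oxoglutarate. *N. oceanica* is grown for its oil, and under high light it keeps its photosynthetic apparatus, its protection against oxidants and its lipid metabolism in balance. The comparison asks which transcripts differ between a line without the putative demethylase and its parent strain.

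The unit throughout is the TMM-normalized TPM (a length-scaled share of transcripts, rescaled between libraries), called value below. The relative depth could be followed only through the ratio of coverage to FPKM, which was 5.18 to 5.51 in M3 and 4.69 to 6.17 in the WT, and read counts were not used here. Between pairs of M3 libraries the median gene differed by 0.13 to 0.23 on the log2 scale, between pairs of WT libraries by 0.13 to 0.18, and between an M3 and a WT library by 0.16 to 0.26. WT replicate 1 had the highest ratio of coverage to FPKM (6.17) and the lowest share of organelle transcripts of the 3 WT libraries (0.0330%, against 0.0476% and 0.0472%). M3 replicate 1 lay farther from replicates 2 and 3 (0.20 and 0.23) than those did from each other (0.13). The counts of called genes, and some single genes, are given with and without these libraries.

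Few genes differed strongly between M3 and the WT. Of 9440 tested genes, 5 were differentially expressed (DEGs, an adjusted p of 0.001 or less in limma and a change of more than 2-fold), which is 0.053% of those tested: 2 were higher (0.0212%) and 3 lower (0.0318%) in M3. At an adjusted p under 0.05, 93 genes passed (0.985%), of which 61 rose (0.646%) and 32 fell (0.339%) in M3. Without adjustment 1941 genes (20.6%) had a p under 0.05, 965 of them higher and 976 lower in M3. The median log2 difference over all tested genes was 0.01, and 86.8% lay within 0.5 of 0. In all 93 genes the 3 M3 libraries lay on one side of the 3 WT libraries, as they did in 24.6% of all tested genes. The excess of rises depended on the scaling, with 43 rises and 38 falls on the StringTie TPM and 46 rises and 39 falls when organelle genes were left out and nuclear TPM was rescaled.

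The 93 calls depended on single libraries much more than the DEGs did. Without WT replicate 1 the count was 219 (143 higher, 76 lower), and 82 of the 93 genes were among them. It was 12 without M3 replicate 2, 10 without M3 replicate 3, 12 without WT replicate 2 and 13 without WT replicate 3. Without M3 replicate 1 it was 73, with 27 rises and 46 falls, and 37 of the 93 were among them. The DEGs and 3 more genes, NO27G00710, NO27G01230 and NO13G03120, were called whichever of the 6 libraries was left out, whereas 81 of the 93 kept the call in 2 or fewer of those 6 fits.

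**Figure D1:**
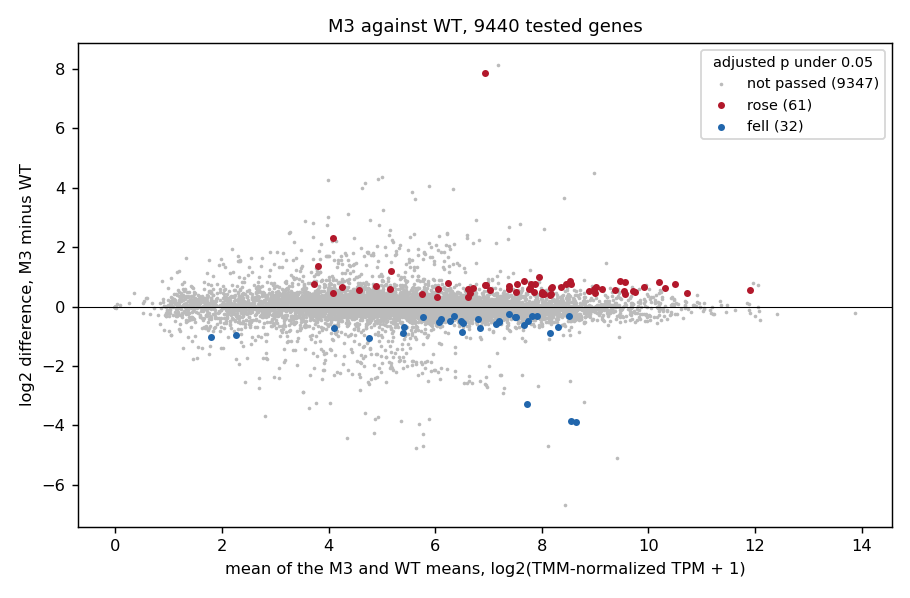
Log2 difference between M3 and the WT (vertical axis) against the mean level in log2(value + 1) (horizontal axis) for the 9440 tested genes, with 61 rises in red and 32 falls in blue at an adjusted p under 0.05. Most called genes lie within 1 of 0 at middle to high levels, while many larger differences in grey did not pass.

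The targeted gene NO06G02500 (chromosome 6, 702217 to 703737) was transcribed in every library. Its values were 76.7, 69.8 and 69.0 in M3, against 58.8, 55.3 and 55.7 in the WT, so every M3 library lay above every WT library. The log2 difference was 0.34 (SE 0.07, adjusted p = 0.0435), a 1.27-fold rise. In M4, the other knockout of this gene, the values were 54.5, 55.3 and 58.1, and M3 exceeded M4 by 0.35 (adjusted p = 0.00393). The means were 63.4 in M1 and 66.4 in M2. The call in M3 was kept in 1 of the 6 fits that leave out a library, with WT replicate 1 left out (adjusted p = 0.0388), and reached an adjusted p of 0.185 in the others. It was also lost on the StringTie TPM, with quantile normalization and when organelle genes were left out. The same held with a replicate block, without a variance trend and with M3 and WT libraries alone. A value per gene cannot show a change of sequence at the guide's target site, so these levels do not check the label. Of the 10 genes on each side of NO06G02500, 17 were tested and none was called, with log2 differences from -0.43 to 0.39. The other targeted gene, NO08G00280, had 11.2, 12.7 and 7.65 in M3, against 6.70, 8.36 and 9.57 in the WT, and the groups overlapped (adjusted p = 0.450).

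Among the genes at an adjusted p under 0.05, the largest falls were those of 3 adjacent genes of chromosome 10. Larger log2 differences, down to -6.67 over all tested genes, did not pass. NO10G00370 (130548 to 135092) is described as a 5-formyltetrahydrofolate cycloligase, an enzyme that brings stored formyl-folate back into the pool of active folates, which carry the carbon units for purines, thymidylate and methionine. NO10G00380 (134911 to 135606) and NO10G00390 (135694 to 136356) have no description in the sources used here. NO10G00370 and NO10G00380 share 182 bases, so reads there may be split between them, and 87 bases lie between NO10G00380 and NO10G00390.

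NO10G00370 had values of 49.6, 36.3 and 30.9 in M3, against 329, 446 and 366 in the WT. NO10G00380 had 63.4, 44.6 and 36.8 in M3, against 582, 821 and 704 in the WT. NO10G00390 had 63.2, 33.3 and 54.3 in M3, against 638, 878 and 722 in the WT. All 3 genes were thus far lower in each M3 library than in any WT library. The means were 9.77-fold lower for NO10G00370 (log2 difference -3.27, SE 0.25, adjusted p = 4.99e-05), 14.6-fold lower for NO10G00380 (-3.86, SE 0.23, adjusted p = 6.68e-06) and 14.8-fold lower for NO10G00390 (-3.90, SE 0.30, adjusted p = 4.99e-05). Summed over the 3 genes, the value was 176, 114 and 122 in M3, 2106, 1848 and 2407 in M4, 1107, 870.3 and 601 in M1, 362, 383 and 434 in M2, and 1549, 2145 and 1792 in the WT. M4, the second line of the same knockout, thus lay in or above the range of the WT. Every M1 and M2 library lay below every WT library in this sum, and M3 was the lowest of the 5 groups. Each gene differed between M3 and M4 (log2 differences of -3.66, -4.19 and -3.86 in chromosomal order), between M3 and M1 (-2.17, -2.72 and -2.79) and between M3 and M2 (-1.22, -1.72 and -1.51), at adjusted p of 0.00546 or less.

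The fall stopped at both ends of the trio. NO10G00360, which overlaps NO10G00370 by 1359 bases, had 16.3, 12.4 and 11.5 in M3, against 15.5, 14.1 and 14.9 in the WT (adjusted p = 0.577). On the other side, NO10G00400 had 37.2, 32.2 and 41.7 in M3, against 32.2, 32.7 and 13.2 in the WT (adjusted p = 0.290). Of 19 tested genes among the 10 on each side of NO10G00380, the only ones called were the other members of the trio. These were also the only called genes in the genome that lay side by side, making 2 adjacent pairs.

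**Figure D2:**
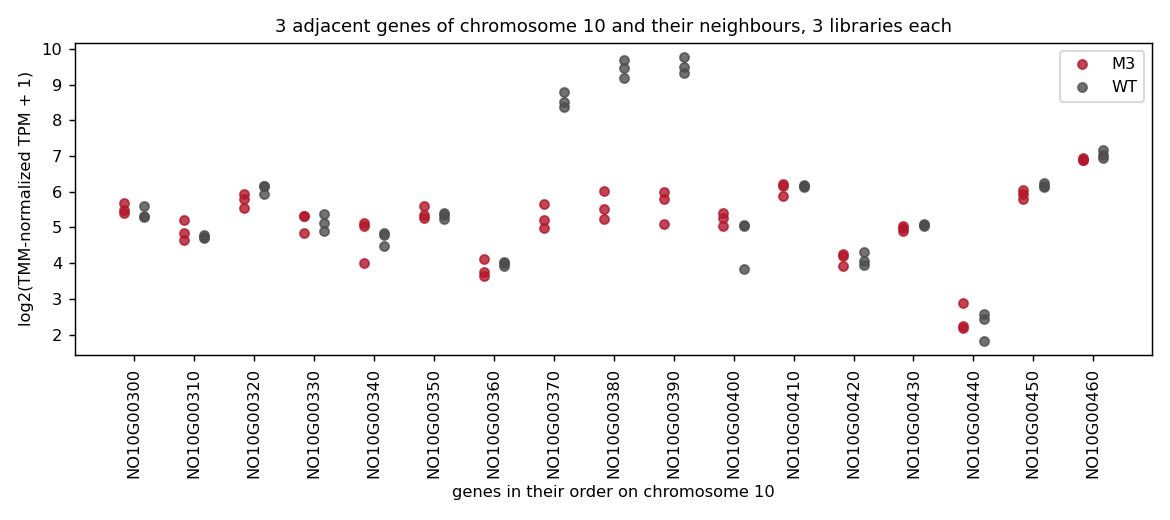
Log2(value + 1) (vertical axis) of 17 consecutive genes of chromosome 10 in their order (horizontal axis), with 1 point for each of the 3 M3 libraries (red) and the 3 WT libraries (grey). NO10G00370, NO10G00380 and NO10G00390 stand apart, between 30.9 and 63.4 in M3 and between 329 and 878 in the WT.

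The clearest rise of a described gene was that of NO18G00300 (chromosome 18, 111521 to 116782), a member of glycosyl hydrolase family 85, whose known enzymes in other organisms cut the core of N-linked glycans. Its values were 30.4, 27.9 and 23.5 in M3, against 3.70, 5.05 and 5.64 in the WT, 5.68-fold higher by the means (log2 difference 2.29, SE 0.15, adjusted p = 1.88e-05). No other line came near M3, with 6.84, 6.03 and 6.16 in M4, 3.69, 4.87 and 4.18 in M1 and 6.58, 5.91 and 6.54 in M2, and M3 exceeded each of them (log2 differences of 1.94, 2.43 and 1.94, adjusted p of 7.28e-05 or less). NO18G00290 overlaps it by 1923 bases and had 5.19, 4.43 and 3.96 in M3, against 4.41, 4.45 and 4.22 in the WT. No neighbour among 12 tested within 10 genes was called.

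NO04G01590 (chromosome 4, 481024 to 482757), which has no description, was the remaining DEG. It had 163, 266 and 295 in M3 and was listed at 0 in all 9 libraries of M4, M1 and the WT, so no fold change can be given. M2, a line of the other knockout, had 189, 204 and 215, and its difference from M3 was 0.21 on the log2 scale (adjusted p = 0.464). The gene next to it, NO04G01600, was listed at 0 in every library. A listed 0 need not mean that the gene was silent, since 332 tested genes were listed at 0 in a library and at 20 or more in another library of the same group. NO10G03610, chosen after its values were seen, shows such a pattern: 207, 322 and 335 in M3, 0, 0 and 187 in M4, 0, 0 and 351 in M1, 228, 0 and 0 in M2, and 0 in all 3 WT libraries (adjusted p = 0.134 for M3 against the WT, and 0.000486 with only the libraries of these groups in the fit). NO04G01590 differs from it in that no group was mixed. Over the genome, 8 tested genes were listed at 0 throughout a group and at 20 or more throughout another, and with M3 and the WT as those groups there were 2, NO04G01590 and NO10G03610.

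**Figure D3:**
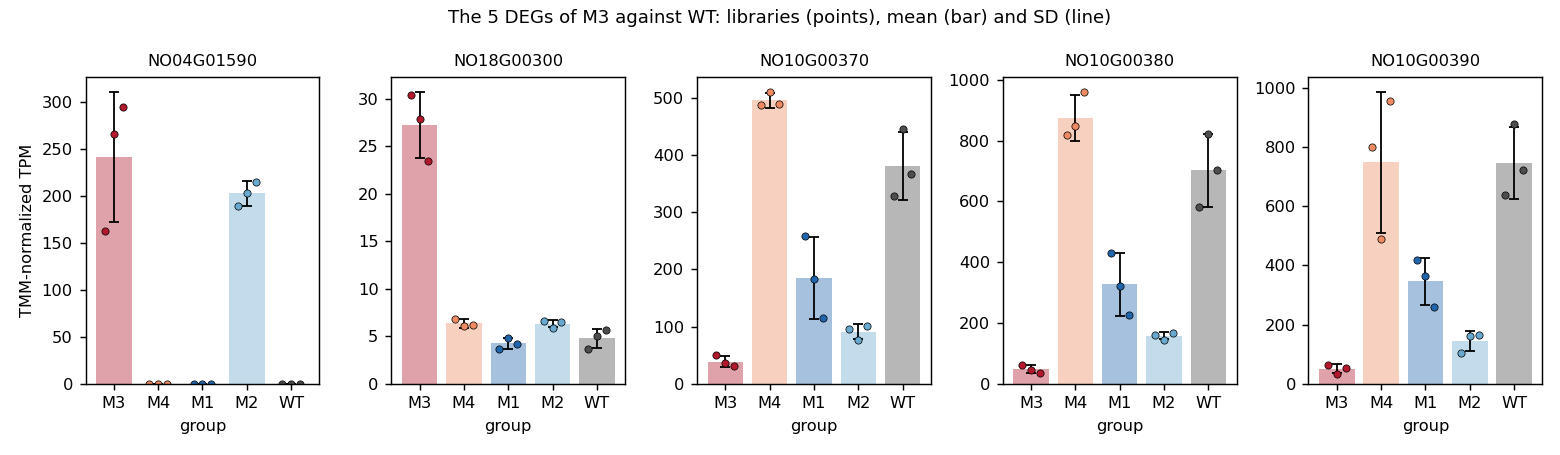
Values in TMM-normalized TPM (vertical axes, from 0) of the 5 DEGs in M3, M4, M1, M2 and the WT (horizontal axes), with points for the 3 libraries of a group, bars for the mean and lines for the SD. M3 is the lowest group for the 3 genes of chromosome 10 and the highest for NO18G00300, while NO04G01590 is present in M3 and M2 and listed at 0 elsewhere.

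The spread in these tests was estimated over all 5 groups. With M3 and WT libraries alone, the same 5 genes kept adjusted p under 0.05, from 0.000645 for NO04G01590 to 0.0329 for NO18G00300, but only NO04G01590 still met the DEG threshold.

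Outside the DEGs the changes were small, and few of the genes have a description. Of the 61 rises, 57 were below 1 on the log2 scale, and of the 32 falls, 27 were. The median rise was 0.61 and the median fall -0.54. Called genes were well expressed: 67.2% of the risen and 65.6% of the fallen genes had a WT mean of at least 100, compared with 26.6% of all tested genes. Changes of low genes are understated by log2(value + 1), and how far this shapes these shares was not tested. They lay on 28 of the 30 nuclear chromosomes, at most 9 on any 1, and 16 of them overlap another gene in position. A description was at hand for 8 of the 93, from a list of genes that all changed in some line of these libraries.

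Among the described genes that rose, NO22G00410 encodes an adenosine kinase 1, which turns adenosine into AMP and thereby clears the adenosine released by S-adenosylmethionine-dependent methylation. It had 35.5, 49.7 and 63.4 in M3, against 23.1, 16.1 and 23.4 in the WT (log2 difference 1.19, SE 0.24, adjusted p = 0.0435). M2 had a mean of 55.7, M1 of 25.1 and M4 of 22.0. NO03G01740, ribosomal protein S21e of the small cytosolic subunit, had 297, 302 and 375 in M3, against 195, 129.5 and 168 in the WT (0.99, SE 0.19, adjusted p = 0.0432). NO17G00580, a shikimate kinase 2 of the pathway to aromatic amino acids, had 274, 286 and 240.4 in M3, against 187, 165 and 161 in the WT (0.64, SE 0.12, adjusted p = 0.0415). In NO27G00430, a calcium-dependent protein kinase 19 that passes calcium signals on by phosphorylation, the values were 126, 116 and 133 in M3, against 73.7, 91.5 and 79.6 in the WT (0.61, SE 0.12, adjusted p = 0.0435). M2 stood well above M3 in this gene, with 320.3, 295 and 343 (log2 difference of M3 from M2 -1.35, adjusted p = 3.38e-05), while M4 had a mean of 67.4 and M1 of 75.1. None of these 4 genes kept its call in more than 2 of the 6 fits that leave out a library.

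Among the described genes that fell, NO27G00710 belongs to the NAD(P)-linked oxidoreductase superfamily of aldo-keto reductases. It had 14.1, 17.1 and 18.0 in M3, against 34.5, 33.6 and 38.2 in the WT, 2.16-fold lower (log2 difference -1.07, SE 0.12, adjusted p = 0.00244). Its call was kept without any of the 6 libraries (adjusted p of 0.0212 or less), but not with M3 and WT libraries alone (adjusted p = 0.0941). NO04G01610, a thiamine pyrophosphate-dependent pyruvate decarboxylase and the first tested gene after NO04G01590 on chromosome 4, had 122, 123 and 115 in M3, against 171, 180.0 and 164 in the WT (-0.51, SE 0.09, adjusted p = 0.0406). It overlaps NO04G01600 and kept its call only without WT replicate 1.

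The genes without a description can be given only by position and level. NO04G01510 (chromosome 4, 467960 to 469868) rose most among them apart from the DEG NO04G01590, with 19.9, 18.9 and 18.3 in M3, against 6.45, 6.87 and 7.10 in the WT (log2 difference 1.36, SE 0.27, adjusted p = 0.0435). It overlaps NO04G01500, which was not called, and lost its own call whichever library was left out. The next 10 such rises, of 0.76 to 0.88, were NO03G03920, NO17G00730, NO04G00990, NO09G01520, NO15G02780, NO11G00510, NO03G05070, NO16G01870, NO21G00900 and NO06G04320. NO06G04320 (chromosome 6, 1213318 to 1213909) was the most abundant of these, with 1772, 1848 and 1834 in M3, against 1164, 1021 and 1037 in the WT, and NO11G00510 had the lowest adjusted p of the 10 (0.0176), with 99.6, 75.1 and 109 in M3, against 56.1, 49.2 and 56.2 in the WT. NO13G03120 (chromosome 13, 895131 to 900583) rose less but more evenly, with 152, 155 and 151 in M3, against 96.7, 88.0 and 91.1 in the WT (0.72, SE 0.09, adjusted p = 0.00485), and kept its call without any 1 library.

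Among undescribed genes that fell, NO27G01230 (chromosome 27, 401082 to 407888) had 54.1, 66.3 and 70.3 in M3, against 115, 108 and 121 in the WT (log2 difference -0.85, SE 0.10, adjusted p = 0.00482). NO13G03170 fell at a low level, with 1.49, 1.40 and 0.982 in M3, against 3.60, 4.38 and 3.05 in the WT (-1.03, SE 0.15, adjusted p = 0.0190). NO12G03750 did so too, with 2.57, 2.48 and 1.72 in M3, against 4.91, 5.55 and 5.53 in the WT (-0.97, SE 0.16, adjusted p = 0.0286). NO22G01920 had 22.5, 32.4 and 31.2 in M3, against 54.5, 53.1 and 51.5 in the WT, and NO28G01690 had 177, 216 and 201, against 358, 459.6 and 293, both with a log2 difference of -0.88. The M3 and WT libraries of these 5 genes did not overlap, as in all 93 called genes and in 24.6% of all tested genes. The other falls among the 15 largest, of -0.59 to -0.72, were NO03G03370, NO10G01180, NO05G04300, NO10G03380, NO03G00080 and NO15G03370.

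**Figure D4:**
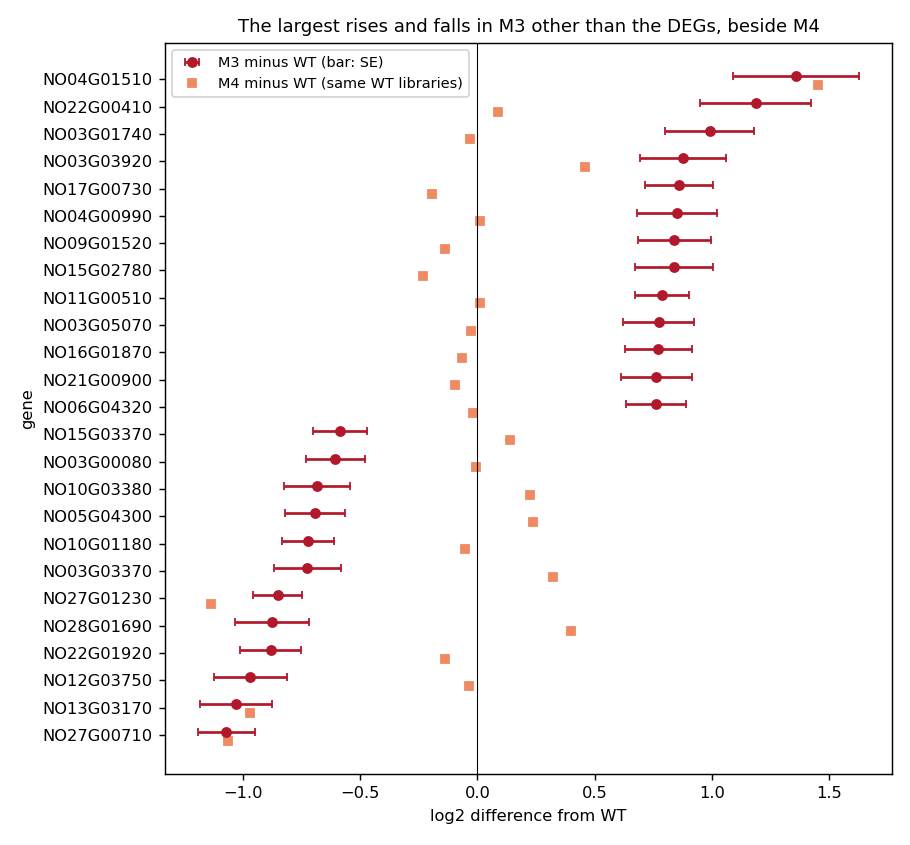
Log2 difference from the WT (horizontal axis) of the 13 largest rises and 12 largest falls other than DEGs (vertical axis), with M3 in dark red (bars: SE) and M4, set against the same WT libraries, in orange squares. M4 lies beside M3 for NO04G01510, NO13G03170 and NO27G00710 and past it for NO27G01230, and nearer to 0 or on its other side for the remaining genes.

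The second NO06G02500-knockout line was far from M3 in most of these genes. Of the 93 called genes, 81 also differed between M3 and M4 in the same direction (55 rises and 26 falls). The background is high, since 25.6% of all tested genes differed between M3 and M4 and 23.5% did so in the direction in which M3 differed from the WT. M3 libraries enter both comparisons, so the 81 are not independent support for the 93. In the other 12 genes M3 and M4 were not shown to differ. NO27G00710 had 15.5, 16.0 and 17.7 in M4, and the M3 minus M4 difference was -0.01 (SE in the same fit 0.12, adjusted p = 0.977). NO27G01230 had 53.5, 48.0 and 53.9 in M4, NO13G03170 had 1.37, 1.64 and 1.14, and NO04G01510 had 19.9, 16.2 and 26.1, close to the M3 values given above. Each of these 4 genes was also called in M4 against the same WT libraries, at log2 differences of -1.06, -1.13, -0.97 and 1.45 (adjusted p of 0.0164 or less, where 5.33% of all tested genes passed), so with both lines set against shared controls the values lie side by side and are not separate tests. In NO27G01230 the NO08G00280 knockouts had means of 47.9 ± 6.04 in M1 and 117 ± 1.40 in M2, beside 114.9 ± 6.78 in the WT (SD, n = 3 each). NO13G03170 averaged 23.6 ± 1.14 in M2 (SD, n = 3).

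Against the NO08G00280 knockouts, 53 of the 93 genes differed from M1 in the same direction, where 3.5% of all tested genes differed in either direction and 3.09% in the direction of M3 against the WT. From M2, 17 differed in the same direction, where 21% of all tested genes differed in either direction and 8.52% in that one. These comparisons, too, share the M3 libraries. Of the 61 risen genes, 7 were above M2. NO09G01520, for example, had 1420.1, 1440.2 and 1625 in M3, 772, 729 and 771 in M4, 741, 961 and 1247 in M1 and 1432, 1474 and 1481 in M2, against 919, 704 and 895 in the WT, and its difference from M2 was 0.03 (adjusted p = 0.927).

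Genes that set M3 apart from all other groups were few. Of the 93, 9 differed from M4, M1 and M2 as well as from the WT, 4 above and 5 below them. Of all tested genes, 23.5%, 3.09% and 8.52% differed from M4, M1 and M2, each taken singly, in the direction of M3 against the WT. The share that met all of these at once was not counted, and every comparison shares the M3 libraries. The 9 genes comprised 4 of the 5 DEGs, all but NO04G01590, and 5 more genes, none with a description. NO03G03770 had 33.7, 36.9 and 36.0 in M3, 16.9, 16.4 and 13.9 in M4, 15.2, 15.0 and 16.9 in M1 and 23.0, 19.4 and 18.1 in M2, against 25.9, 17.6 and 21.5 in the WT. NO09G03910 had 102, 109 and 110.3 in M3, against 80.2 to 90.2 in the WT, and NO21G00850 had 238, 257 and 279, against 165 to 183. Below the other groups lay NO03G03370, with 13.8, 11.6 and 10.6 in M3, against 18.1 to 22.8 in the WT, and NO15G03370, with 129, 102 and 103, against 157 to 185. Each of these 5 genes lost its call against the WT in some fits that leave out a library.

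Calls among genes of named functions were about as rare as among all tested genes (0.985%). Over 11 lists with 97 nuclear genes, 95 were tested, 1 rose (NO27G00430) and none fell, with the backgrounds of 0.646% and 0.339% given above. Without adjustment, limma gave a p under 0.05 for 10 list genes higher and 23 lower in M3. This was a larger share than the 20.6% among all 9440 tested genes (965 higher and 976 lower). The median log2 difference of the list genes was -0.11, beside 0.01 over all tested genes. The lists were drawn from genes that had changed in some line of these libraries and are no independent evidence of direction.

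The lowest median, -0.41, was that of 8 genes for potassium, calcium, magnesium and metal transport, of which 7 lay below 0 and 5 of them at an unadjusted p under 0.05 (20.6% of all tested genes, in either direction), but none passed after adjustment. NO25G01880, a heavy metal ATPase 2 that pumps metal ions across membranes, had 147, 156 and 149.7 in M3, against 198, 268 and 259.6 in the WT (log2 difference -0.66, adjusted p = 0.0951). NO10G02520, a stelar K+ outward rectifier channel, had 131, 99.9 and 103 in M3, against 149, 169 and 146 in the WT (-0.48, adjusted p = 0.119). NO16G02820, a calcium pump of the endoplasmic reticulum, had 281, 216 and 215 in M3, against 286, 369 and 375 in the WT (-0.53, adjusted p = 0.159). In these 3 genes every M3 library lay below every WT library, as in 1159 of all 9440 tested genes, and none passed. The list held 4 such genes, the other being NO03G04740 at a low level (log2 difference -0.78, adjusted p = 0.128). In 1 gene of the list, NO21G01570, every M3 library lay above every WT library. NO10G03820, a cation exchanger 4, had 83.2, 70.4 and 66.2 in M3, against 82.0, 101 and 96.9 in the WT (-0.35, adjusted p = 0.0831), and passed without WT replicate 1 (adjusted p = 0.0341) or M3 replicate 1 (0.0411). Against M4, 6 of the 8 genes were lower in M3 at an adjusted p under 0.05, as were 1112 of all 9440 tested genes.

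Among 7 genes of sulfate transport and sulfolipid synthesis the median was -0.39, and 4 had an unadjusted p under 0.05, all lower in M3, where 20.6% of all tested genes had one in either direction. They include the 3 sulfoquinovosyldiacylglycerol synthases, which make the sulfur-containing lipid of photosynthetic membranes. NO15G02830 had 207, 275 and 309 in M3, against 339.9, 434 and 429.6 in the WT (adjusted p = 0.218), NO07G01720 had 527, 589.7 and 606, against 684, 806 and 808 (adjusted p = 0.202), and NO05G03760 had 120.5, 139 and 136, against 153, 191 and 188 (adjusted p = 0.0934). The sulfate transporter NO11G01800 had 255, 223 and 222 in M3, against 269, 344 and 306 in the WT (adjusted p = 0.182). In each of the 4 genes every M3 library was below every WT library, as in 1159 of all 9440 tested genes, without passing the test. NO05G03760 passed without WT replicate 1 (adjusted p = 0.0438).

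In the list for antioxidants and redox, 8 of 10 genes lay below 0 (median -0.34), as did 4608 of all 9440 tested genes. At an unadjusted p under 0.05, 4 were lower and 1 higher in M3, beside 20.6% of all tested genes in either direction. None of the 10 passed after adjustment. Ascorbate peroxidases, which remove hydrogen peroxide, had 105, 92.1 and 126 (NO26G00430) and 299, 261 and 237 (NO10G02430) in M3, against 152, 167 and 142 and against 334, 369 and 347 in the WT, with adjusted p of 0.104 and 0.188. Dehydroascorbate reductase NO01G01360, which regenerates ascorbate, had 90.8, 84.0 and 81.4 in M3, against 65.4, 56.7 and 59.0 in the WT (log2 difference 0.49, adjusted p = 0.0795). NO21G00950, the methionine sulfoxide reductase NoMSR that repairs oxidized methionine in proteins, overlapped between groups, with 180.3, 205 and 249.9 in M3, against 249.6, 247 and 201 in the WT (-0.14, SE 0.16, adjusted p = 0.649). M4 had a mean of 108 in this gene, and M3 exceeded M4 by 0.96 (adjusted p = 0.00199).

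Of 12 tested genes for lipid droplets, lipases and fatty acids none was called in limma, 2 had an unadjusted p under 0.05 in each direction, and the median was -0.01. NO11G02550, which encodes a surface protein of lipid droplets, had 1469, 1301 and 1448 in M3, against 1846, 1854 and 1757 in the WT (log2 difference -0.37, adjusted p = 0.123). Of the genes in this list without a description, NO11G02470 had 132, 148 and 155 in M3, against 127, 121 and 118 in the WT (adjusted p = 0.152), and NO28G00700 had 143, 106 and 88.1, against 82.4, 77.2 and 84.8 (adjusted p = 0.195).

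The 9 genes of light receptors, antenna, Rubisco and clock had a median of -0.11, none was called, and limma gave 1 higher and 2 lower in M3 at an unadjusted p under 0.05. NO09G00450, described as a light-harvesting complex gene of photosystem I, had 4550.2, 4679.7 and 5723 in M3, against 4124, 2544 and 2247 in the WT (log2 difference 0.79, SE 0.23, adjusted p = 0.104, and 0.0300 without WT replicate 1). NO01G04880 is described as phototropin 2 in the gene list, while the study's text names it an aureochrome, a transcription factor of stramenopiles. It had 68.9, 66.4 and 58.9 in M3, against 68.7, 92.7 and 97.6 in the WT (adjusted p = 0.314), while the means were 154 in M4 and 10.5 in M2. The M3 minus M4 log2 difference was 1.47 for NO09G00450 (adjusted p = 0.00169) and -1.24 for NO01G04880 (adjusted p = 0.00256).

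The chaperones had a median of -0.14 over 13 genes and none was called in limma, with 1, chaperonin NO05G01850, at an unadjusted p under 0.05 (412, 475 and 565 in M3, against 662, 659 and 595 in the WT, adjusted p = 0.164). Within this list a single library often stood apart from its group, as in the heat shock protein NO03G01460, with 127, 154 and 1828 in M3, against 201, 169 and 161 in the WT. Nitrate assimilation (4 genes, median -0.13), phosphate and proton pumps (8, -0.20), meiosis, repair and cell cycle (10, 0.01) and chromatin and methyltransferases (8, 0.29) held no called gene. At an unadjusted p under 0.05 the phosphate and proton pump list had 1 gene higher and 3 lower, the meiosis list 2 higher, the chromatin list 1 in each direction and the nitrate list none.

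**Figure D5:**
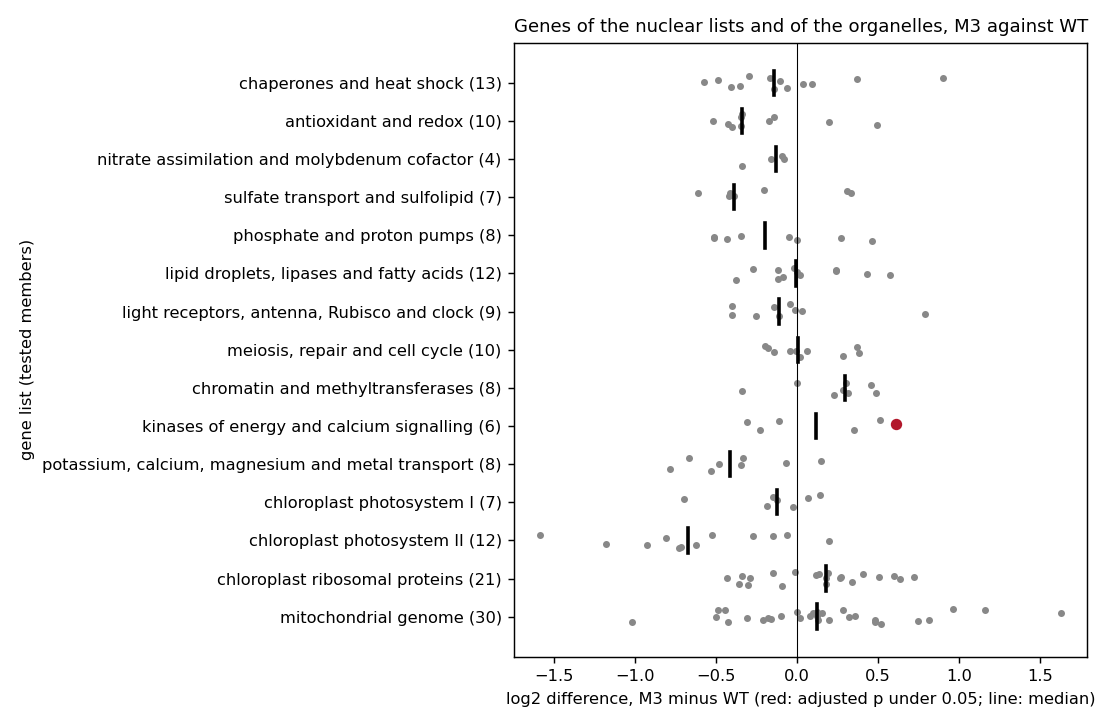
Log2 difference between M3 and the WT (horizontal axis) of every tested gene in the 11 nuclear lists and 4 groups of organelle genes (vertical axis, tested members in brackets), with a black line at the median of each. The red point is NO27G00430, the only gene called, and the lowest medians are those of chloroplast photosystem II (-0.67), of metal transport (-0.41) and of sulfate transport and sulfolipid (-0.39).

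Organelle genes made up very little of the libraries, 0.0421%, 0.0414% and 0.0352% of the summed values in M3, against 0.0330%, 0.0476% and 0.0472% in the WT. The means differed by -0.00304 percentage points with overlapping groups (exact permutation test, two-sided p = 0.6, n = 3 each, where 0.1 is the smallest p possible). M4 had a higher share, 0.0600% to 0.0750%. Of the 98 tested organelle genes, 5 were higher and 9 lower in M3 at an unadjusted p under 0.05 in limma, a smaller share than the 20.6% of all tested genes, and none passed after adjustment.

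Genes of chloroplast photosystem II, the complex that splits water, had a median of -0.67 over 12 tested members, 11 of them below 0. Of all 9440 tested genes, 4608 lay below 0. An unadjusted p under 0.05 was found in 5 of the 12, beside 20.6% of all tested genes in either direction. The member with by far the highest values, cp-psbA, had 109, 106 and 102 in M3, against 79.9, 138 and 147 in the WT (log2 difference -0.15, adjusted p = 0.686). WT replicate 1 lay below every M3 library in cp-psbA. The CP47 antenna gene cp-psbB had 4.34, 3.20 and 3.31 in M3, against 3.94, 12.1 and 9.33 in the WT (log2 difference -0.93, SE 0.35, adjusted p = 0.169, and 0.0420 without WT replicate 1). At low values, cp-psbN, grouped here by its name prefix, had 2.17, 0.269 and 0.074 in M3, against 3.70, 3.34 and 4.70 in the WT (-1.58, SE 0.46, adjusted p = 0.107). WT replicate 1, which had the lowest organelle share of the WT, lay within the range of M3 for cp-psbB. Photosystem I gene cp-psaA had 3.29, 3.93 and 2.76 in M3, against 3.55, 7.83 and 7.40 in the WT (adjusted p = 0.204), and the Rubisco large subunit gene cp-rbcL had 5.21, 6.67 and 5.07 in M3, against 6.40, 10.1 and 13.1 in the WT (adjusted p = 0.198). In cp-psaA and cp-rbcL, too, WT replicate 1 lay within the range of M3. The medians of the other organelle groups were -0.12 over 7 photosystem I genes, -0.25 over 5 genes of cytochromes and ferredoxin, -0.25 over 7 ATP synthase genes, -0.14 over 2 chlorophyll synthesis genes, 0.18 over 21 chloroplast ribosomal protein genes and 0.12 over 30 mitochondrial genes.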

How the data were processed

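Values of 15 RNA-seq libraries of 5 groups with 3 replicates each were used, of which M3 and the WT form the comparison. Per the study's methods, libraries were made with a NEBNext Ultra RNA kit and reads were aligned with STAR in the nf-core/rnaseq pipeline. A matrix was then made with Trinity (RSEM2 method, TMM normalization). Those methods state no step that marks strand, so overlapping and antisense genes cannot be taken as fully told apart. In the deposited matrix the values are TMM-normalized TPM, treated as a signal because TMM changes the sum of each library. Each library's column equals the TPM that the authors deposited for it from StringTie times 1 factor (0.947 to 1.05). The coverage (a signal of mean read depth) and FPKM that the authors deposited beside it were used for relative depth only. Counts were not used here, so the edgeR test of the study's methods could not be run, counting errors are unknown, and precision rests on 3 replicates. Columns of the authors' comparisons were not used.

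After removal of genes averaging below 1 across the 15 libraries, log2(value + 1) was fitted in limma (version 3.58.1, R 4.3.3). The model had 1 mean for each of the 5 groups and a variance trend, and p-values were adjusted by Benjamini-Hochberg over all 9440 genes. Fold changes of low genes are understated on this scale. The procedure was tested on simulated data with normal noise and with changes larger than those of most called genes, so it does not cover most of the calls. Levels and counts were summarised in Python 3.11.15 with numpy 2.4.6 and pandas 2.3.3. Coordinates are those of the deposited tables (IMET1v2 genome, per the study's methods). Descriptions come from the study's supplementary gene list (228 genes). Organelle genes are grouped by name prefix.

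Named genes are the targeted genes, those the study names, members of 11 lists, the 15 largest rises and 15 largest falls with an adjusted p under 0.05 and no overlap between libraries, described DEGs, organelle genes and the 10 neighbours on each side of NO06G02500; the neighbours of other DEGs, NO10G03610 and the genes that kept their call without any library or differed from every group were chosen after their values were seen. The comparison, the members and the lists were chosen with earlier results of these data known. Alternatives were other pseudocounts, filters, scalings and limma settings, M3 and WT alone, a replicate block and leaving out each library.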

Additional observations from a re-analysis of the deposited data

Results flagged for a closer look

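M3 and M4, each a single transformant with the same gene targeted, differed from each other in several genes by limma, which compares the 2 lines and not the effect of the knockout. The M3 minus M4 log2 difference was -3.66 for NO10G00370 (adjusted p = 2.36e-05), -4.19 for NO10G00380 (adjusted p = 2.65e-06), -3.86 for NO10G00390 (adjusted p = 6.68e-05) and 1.94 for NO18G00300 (adjusted p = 7.28e-05), with all 3 M3 libraries on one side of all 3 M4 libraries. NO04G01590 was listed at 0 in all 3 M4 libraries, and its fitted difference of 7.88 depends on the pseudocount. NO06G02500 itself differed by 0.35 (adjusted p = 0.00393). Of the 93 genes called in M3 against the WT, 81 differed between the lines, beside 25.6% of all tested genes in either direction. Among the 95 tested list genes, 36 differed, 14 higher and 22 lower in M3 than in M4.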

How the results depend on the processing

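The 5 DEGs were kept under other pseudocounts, filters, scalings and settings of the variance, and without any 1 library, where the count ranged between 5 and 7. With M3 and WT libraries alone the count was 2, of which 1 was shared, and a looser adjusted p under 0.05 with more than 2-fold gave 9. Leaving out genes listed at 0 in M3 or the WT, an alternative chosen after seeing the data, removes NO04G01590 by construction and gave 4 DEGs and 103 called genes. The 93 calls became 53 with quantile normalization, 49 without a variance trend and 10 with M3 and WT libraries alone (48, 44 and 7 shared), and ranged from 10 to 219 when single libraries were left out; the cause was not tested. The replicate numbers did not pair the samples (correlation of same-numbered deviations -0.030, 0.0035 and -0.068), and a replicate block gave 17 calls, all among the 93, and 5 DEGs. The DEGs that also differ from M4, M1 and M2 numbered 4 or, without an M3 library, 5. The organelle share difference kept its sign throughout, from -0.00785 to -0.000527 percentage points without single libraries. Direction was followed only in tested genes given by ID in the text above, not in every member of the lists. It turned round in NO03G01460 without M3 replicate 3 (log2 difference -0.33, and up to 1.59 without another library). NO18G00290 also turned round, without M3 replicate 1 (-0.047, and up to 0.11). Neither was called, and no other gene that was followed turned round under these alternatives. Depth limits low genes most: at values near 1 the pseudocount shrinks differences, and without counts no limit of detection can be given.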
